A study of Mus musculus with 6 samples.

Results

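Genes that activate, bind, desaturate, elongate, store and import fatty acids were compared between 2 groups of mutant mouse testes. The genes were chosen by symbol, with earlier results of these data known. They are those whose name in the array's annotation starts with Acsl, Acsm, Acot, Elovl, Fads, Scd plus a digit, Fabp, Plin, Cpt1 or Cpt2. This gave 51 of the 18194 genes that had a probe set of their own on the array, and 35 of them were bright enough to be tested. The mice were 12 weeks old, and RNA of whole testes was put on 6 Affymetrix arrays, 3 of jsd mice and 3 of SCARKO-jsd mice. Both groups carry the jsd mutation of Utp14b, after which adult tubules keep Sertoli cells and spermatogonia and few later germ cells. In SCARKO-jsd mice a further gene was knocked out conditionally in Sertoli cells, which surround and nurse the germ line. The genotype tag of these arrays is spelled SCARO-jsd. The promoter that drives the knockout and the strain background are not given in the sources used here. The comparison asks which transcripts differ with the Sertoli cell knockout when few germ cells are there.

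A fatty acid enters metabolism once an acyl-CoA synthetase has joined it to coenzyme A, and thioesterases undo that step. Activated chains are lengthened by elongases and given double bonds by desaturases. They can be stored as triglyceride in lipid droplets coated by perilipins, or carried into mitochondria by carnitine palmitoyltransferases and burnt. Binding proteins ferry free fatty acids through the cytosol. In the testis, Sertoli cells take up residual bodies and dying germ cells, hold lipid droplets and burn fatty acids, and the long polyunsaturated chains of germ cell membranes are made locally. RNA of a whole testis cannot tell fewer cells of a type from less RNA per cell.

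Acsl6 and Acsl3 are the genes for which start sites bear on the results, Acsl6 as the gene that changed most and Acsl3 as the gene whose locus holds Utp14b. RefSeq (GRCm38.p6) gives Acsl6 3 start sites on the plus strand of chromosome 11, the others 380 and 11079 bases after the first. RefSeq gives Acsl3 and Utp14b the same start on the plus strand of chromosome 1. Each window runs from 250 bases before to 50 bases after a start. Capitals mark matches, on either strand, to the GC box letters GGGCGG and to the letters CCAAT, and some of these overlap or adjoin.
Acsl6, first start, chr11:54303574-54303873: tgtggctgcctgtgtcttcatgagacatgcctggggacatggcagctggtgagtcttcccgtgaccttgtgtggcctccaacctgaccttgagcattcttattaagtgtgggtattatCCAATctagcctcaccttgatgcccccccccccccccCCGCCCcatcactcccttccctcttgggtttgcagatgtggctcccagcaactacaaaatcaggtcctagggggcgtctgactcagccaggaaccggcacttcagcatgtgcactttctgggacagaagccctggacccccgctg
Acsl6, second start, chr11:54303954-54304253: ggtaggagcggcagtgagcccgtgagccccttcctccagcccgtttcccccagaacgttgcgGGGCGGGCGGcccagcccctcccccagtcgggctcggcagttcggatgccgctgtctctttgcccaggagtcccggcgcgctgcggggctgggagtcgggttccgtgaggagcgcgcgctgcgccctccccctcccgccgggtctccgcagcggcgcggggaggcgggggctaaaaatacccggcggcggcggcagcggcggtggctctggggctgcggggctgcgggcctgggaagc
Acsl6, last start, chr11:54314653-54314952: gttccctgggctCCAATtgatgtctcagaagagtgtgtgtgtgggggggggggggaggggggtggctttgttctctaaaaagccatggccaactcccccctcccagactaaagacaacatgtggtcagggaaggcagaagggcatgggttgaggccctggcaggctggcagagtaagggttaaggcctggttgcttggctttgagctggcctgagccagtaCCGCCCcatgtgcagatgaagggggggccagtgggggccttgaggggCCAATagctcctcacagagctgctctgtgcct
Acsl3, chr1:78657575-78657874: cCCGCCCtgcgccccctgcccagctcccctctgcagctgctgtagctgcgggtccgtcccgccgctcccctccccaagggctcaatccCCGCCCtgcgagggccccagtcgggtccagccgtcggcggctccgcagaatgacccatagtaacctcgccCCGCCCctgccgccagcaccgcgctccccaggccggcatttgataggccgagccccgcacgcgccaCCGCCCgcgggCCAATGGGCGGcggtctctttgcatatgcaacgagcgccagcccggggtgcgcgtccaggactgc

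The 3 Acsl6 windows differ in base content. The second has 36 CpG dinucleotides and a GC content of 76.0%, while the first has 5 and the last has 1. The Acsl3 window has 33 CpG dinucleotides and 5 GC box matches. Over all 50 RefSeq windows of 41 of the genes, 27 (54.0%) held GGGCGG and 30 held CCAAT, against 35.7% and 37.4% of all 32851 windows of that length. TATAAA was in 10.0% of the genes' windows and in 13.6% of all windows. The hexamer AGAACA, to which steroid receptors bind, was in 18.0% and in 19.0%. The deposited values do not say which start site was used.

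Among the 35 tested genes, 1 rose and 1 fell in SCARKO-jsd testes, and 33 did not pass the test (limma, Benjamini-Hochberg adjusted p under 0.05 over all 10916 tested genes). Acsl6, an acyl-CoA synthetase known from brain, was 4.32-fold higher, and Fabp5, an epidermal-type fatty acid binding protein, was 1.35-fold lower. The share called, 5.71%, stands against 3.57% of all tested genes. At an unadjusted p under 0.05 there were 9 of the 35, or 25.7%, against 18.0% of all genes. The values of the groups were fully apart for 11 of the 35, or 31.4%, against 24.6% of all genes. Differences, always SCARKO-jsd minus jsd on the log2 scale, were above 0 for 26 of the 35, or 74.3%, against 59.8% of all genes. Their median was 0.09, beside 0.04 for all genes. These shares lay not far above those of all genes.

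**Figure D1:**
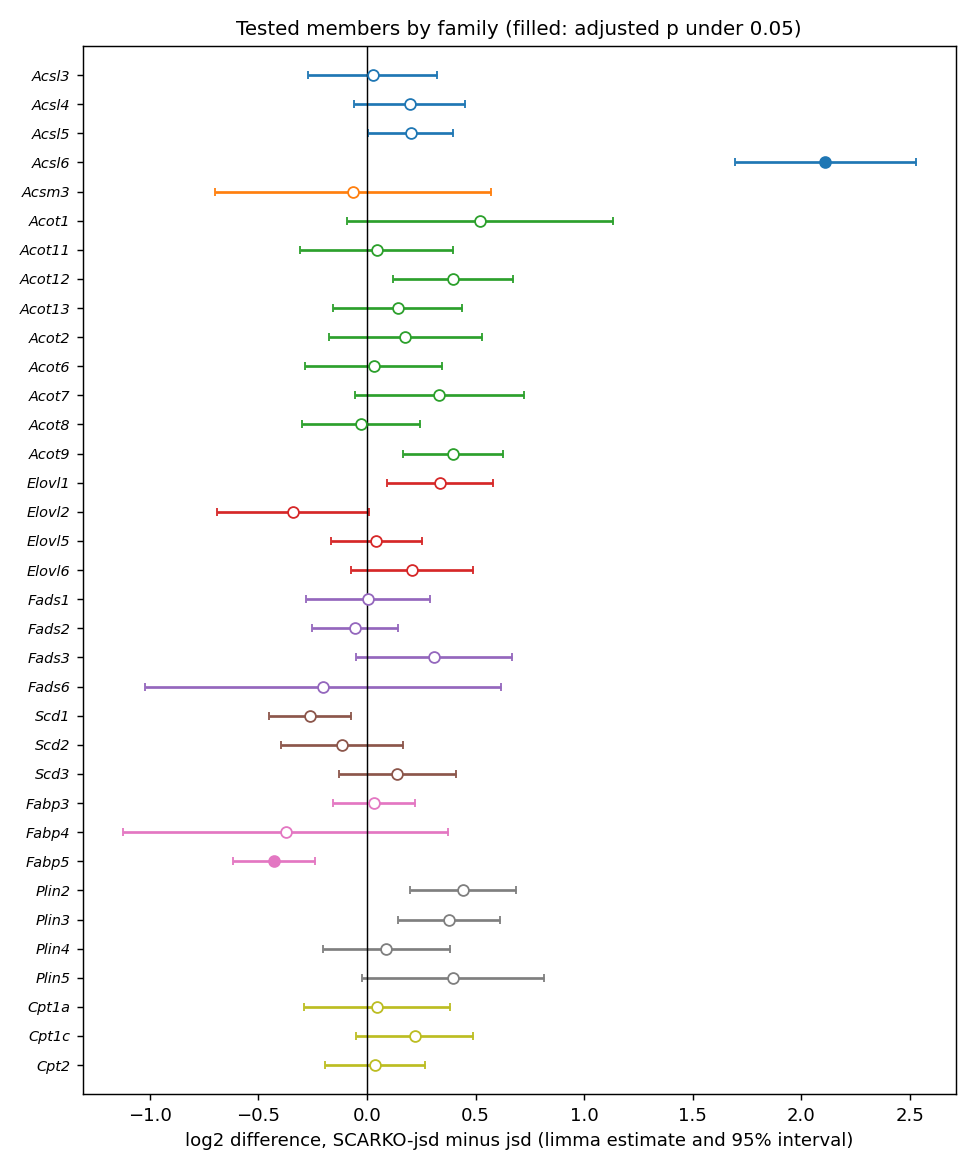
Log2 difference (SCARKO-jsd minus jsd, horizontal axis) of the 35 tested genes with its 95% limma interval, coloured by family. Filled points, Acsl6 at 2.11 and Fabp5 at -0.43, are the genes with an adjusted p under 0.05.

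Of the 6 arrays, SCARKO-jsd 2 was the least like the rest. Across genes it correlated with no array above 0.973, while each of the other 5 had a closest array at 0.990 to 0.994. The gap between the 3' and the 5' actin probe sets was 1.66 (log2) in SCARKO-jsd 2 and 0.70 to 0.98 elsewhere. Without this array, 7.04% of all genes were called, and of the 35 genes again 1 rose and 1 fell, Acsl6 and Fabp5. The count of differences above 0 among the 35 was then 21, and the share of all genes above 0 was 50.8%. Among marker lists, 12 spermatocyte genes had a summed linear level of 1014 to 1140 in jsd and 1554 to 1975 in SCARKO-jsd testes. Of these 12, 4 were tested, 2 rose (Sycp3 and Meig1), and the other 8 were dim. Of 10 tested markers of undifferentiated spermatogonia, 2 rose (Uchl1 and Dazl), 1 fell (Id4) and 7 had an unadjusted p under 0.05, with summed levels of 5988 to 6835 and 6673 to 7879, jsd first. Of 5 tested markers of differentiating spermatogonia, 1 rose (Stra8) and 3 had an unadjusted p under 0.05, with a median difference of 0.70 and summed levels of 4158 to 4862 and 4506 to 5415. Of 8 tested endothelial markers, 1 fell (Kdr), while 7 differences were above 0 and the median was 0.22. Of 12 macrophage and 7 peritubular myoid markers none passed, with 1 and 0 at an unadjusted p under 0.05. Differences were above 0 for 2 of the 12 macrophage and 4 of the 7 myoid markers, with medians of -0.08 and 0.03. Of 5 red blood cell genes measured, 1 was tested and fell, with a difference of -1.21, and the rest were dim. The summed levels of all 5, which include the tested gene, were 573 to 627 in jsd and 320 to 356 in SCARKO-jsd testes. The summed level of 13 Sertoli cell markers was 79331 to 83180 and 78289 to 81281, and that of 6 Leydig cell markers was 60671 to 66401 and 58096 to 69066, jsd first. Of the 13 Sertoli cell markers, Wt1 fell and 12 did not pass, with 3 at an unadjusted p under 0.05 and a median difference of -0.11. Of the 6 Leydig cell markers none passed, and 0 had an unadjusted p under 0.05 (limma).

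Of the 4 long-chain acyl-CoA synthetases, which activate fatty acids, 1 rose and 3 did not pass. Acsl6 was 6.79, 6.59 and 6.56 in jsd 1, 2 and 3 against 8.61, 9.18 and 8.49 in SCARKO-jsd 1, 2 and 3 (log2 expression). Each SCARKO-jsd array lay above each jsd array by more than the spread within a group. The difference was 2.11 ± 0.18 (SE, n = 3 per group; limma, adjusted p = 0.00156), and the 95% interval ran from 1.69 to 2.53. The jsd mean, 6.65, lay at the limit under which genes were left out as dim (6.64), so the size of the fold is uncertain. The other Acsl6 probe set was dim, at 5.67, 5.63 and 5.59 in jsd against 6.17, 6.15 and 5.87 in SCARKO-jsd testes, a difference of 0.43 without overlap. The call held with any 1 array left out, where the difference lay between 1.90 (without SCARKO-jsd 2) and 2.24, and the adjusted p was at most 0.0129. With the probe sets of each gene averaged the difference was 1.27 (adjusted p = 0.00426). The summed spermatocyte markers, Stra8, Uchl1 and Dazl were also higher in SCARKO-jsd testes. Id4 was lower, and 5 of the 10 tested markers of undifferentiated spermatogonia had a difference above 0. The part of these cells in the Acsl6 difference was not tested.

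The other long-chain acyl-CoA synthetases did not pass. Acsl5, found on mitochondria and the endoplasmic reticulum, was 9.52, 9.55 and 9.61 in jsd against 9.69, 9.82 and 9.77 in SCARKO-jsd testes, groups that did not overlap (0.20 ± 0.084 SE, limma adjusted p = 0.262). Acsl4, which prefers arachidonic acid, had probe sets of opposite sign. Its brightest gave 0.20 ± 0.11, with an adjusted p of 0.406, while the other bright probe sets gave -0.32 and -0.17, so no direction is given. Acsl3, which sits on lipid droplets and whose locus holds Utp14b, was 9.73, 9.65 and 9.40 in jsd against 9.51, 9.81 and 9.54 in SCARKO-jsd testes. These values overlapped, and the difference was 0.03, with a 95% interval from -0.27 to 0.32. It was 0.17 on the other bright Acsl3 probe set. Utp14b itself, mutated in both groups, differed by 0.08 ± 0.17 (SE, limma adjusted p = 0.850).

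Of the medium-chain synthetases, Acsm3 was tested. It ranged from 6.77 to 7.17 in jsd and from 6.46 to 7.56 in SCARKO-jsd testes, with SCARKO-jsd 2 at the top. Its difference was -0.06 (95% interval -0.70 to 0.57), and -0.40 without SCARKO-jsd 2 (limma adjusted p = 0.112). Acsm1, Acsm2 and Acsm5, genes known from liver and kidney, were dim, with differences of 0.02, 0.05 and 0.21.

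Thioesterases, which release fatty acids from coenzyme A, gave no call among 9 tested of 12, and 8 of the 9 differences were above 0. Among all tested genes 59.8% of the differences were above 0. Without SCARKO-jsd 2 that share was 50.8%, and Acot11 and Acot6 were then below 0 too, at -0.11 and -0.04. Acot9, a mitochondrial thioesterase, was 9.43, 9.42 and 9.40 in jsd against 9.64, 9.91 and 9.90 in SCARKO-jsd testes. The jsd arrays lay within 0.04 of each other and the SCARKO-jsd arrays all lay higher. The difference was 0.40 ± 0.10 (SE; limma adjusted p = 0.0812), and it passed without SCARKO-jsd 1 (0.48, adjusted p = 0.0429). Acot12, a cytosolic acetyl-CoA hydrolase known from liver, was 7.30, 7.12 and 7.29 in jsd against 7.47, 7.84 and 7.59 in SCARKO-jsd testes. The groups did not overlap on this probe set (0.40 ± 0.12, adjusted p = 0.131) nor on a dim one (0.57). Acot13, a small mitochondrial thioesterase, differed by 0.14, with a 95% interval from -0.16 to 0.44.

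Acot2, Acot1, Acot4, Acot3, Acot5 and Acot6 are related neighbours on chromosome 12. A further probe set names both Acot2 and Acot1, so how far a signal belongs to a single gene of the cluster is uncertain. Acot1, the cytosolic enzyme, ranged from 7.92 to 8.55 in jsd and from 8.20 to 9.21 in SCARKO-jsd testes, with the highest value in SCARKO-jsd 2. Its difference of 0.52 ± 0.26 did not pass (adjusted p = 0.356) and was 0.29 without SCARKO-jsd 2. Acot2, the mitochondrial enzyme, differed by 0.18 and Acot6 by 0.03, while Acot3, Acot4 and Acot5 were dim, at -0.06, -0.03 and 0.06. Acot7, known from brain, differed by 0.33 ± 0.17 (adjusted p = 0.353) and by 0.18 without SCARKO-jsd 2. For the peroxisomal Acot8 and for Acot11 the differences were -0.03 and 0.04.

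**Figure D2:**
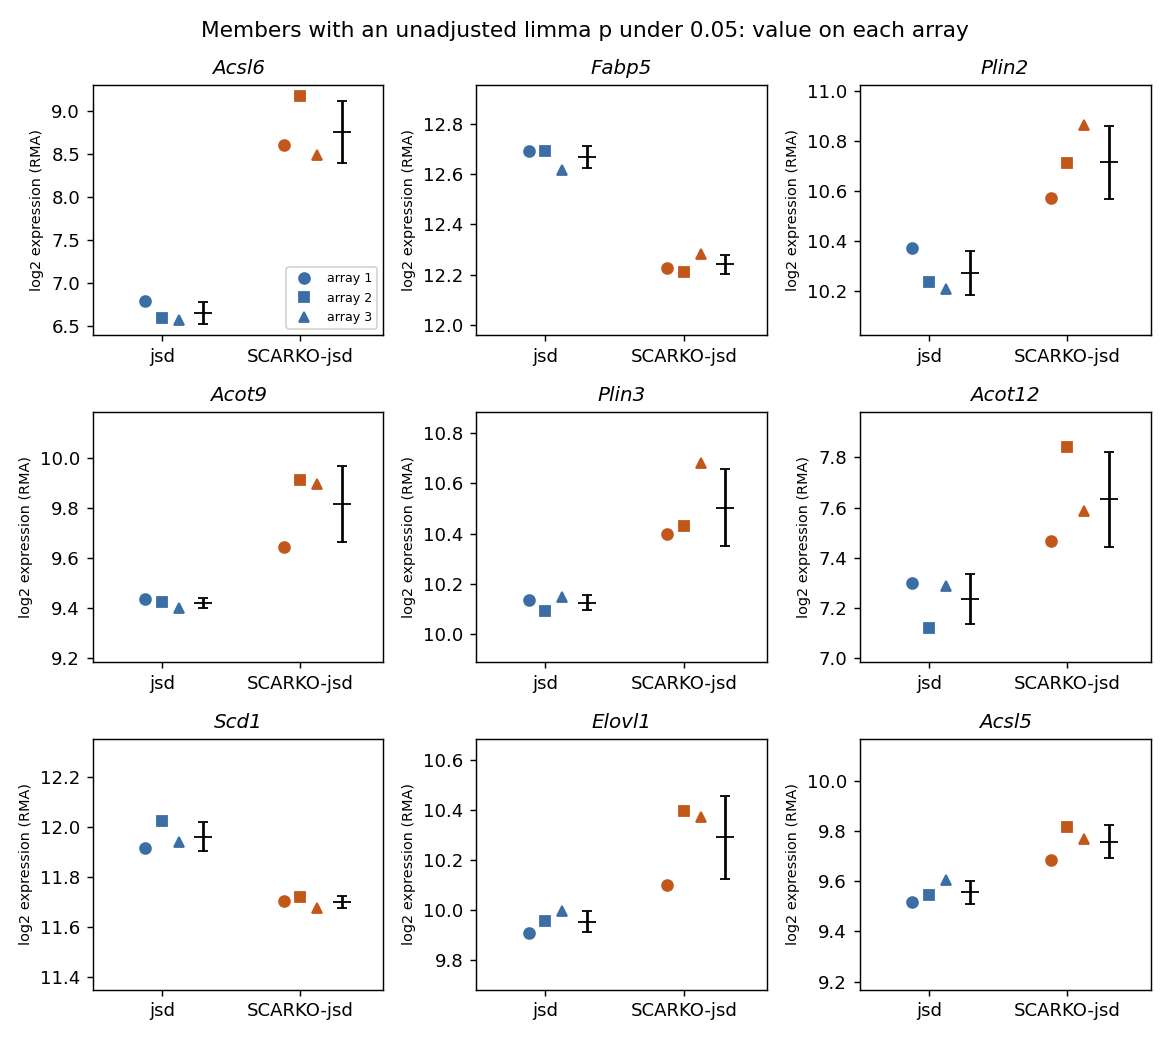
Log2 expression on each of the 6 arrays for the 9 genes with an unadjusted p under 0.05, with the mean and SD of each group (n = 3) beside the points; vertical axes differ between panels. Acsl6 spans over 2 log2 units between the groups, the others under 0.5, and in none do the groups overlap.

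Elongases add carbons to activated chains, and none of the 4 tested passed. Elovl1, which makes saturated very long chains, was 9.91, 9.96 and 10.00 in jsd against 10.10, 10.40 and 10.37 in SCARKO-jsd testes. Every SCARKO-jsd array was higher (0.34 ± 0.10 SE; limma adjusted p = 0.144), as on another bright probe set (0.34), while the remaining bright one gave 0.12. Elovl2, which lengthens polyunsaturated chains and is needed for them in the testis, was 11.19, 11.02 and 10.82 in jsd against 10.81, 10.81 and 10.39 in SCARKO-jsd testes. Here every SCARKO-jsd array was lower, by a margin under 0.01 between the closest arrays (-0.34 ± 0.15, adjusted p = 0.290). Elovl5, which acts on shorter polyunsaturated chains, differed by 0.04 (95% interval -0.17 to 0.26), and Elovl6, which elongates palmitate, by 0.21 ± 0.12 (adjusted p = 0.421).

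The remaining 3 elongases were dim and not tested. Elovl3, known from skin and brown fat, had a mean just under the limit, at 6.14, 6.46 and 6.28 in jsd against 6.80, 7.19 and 6.74 in SCARKO-jsd testes. This difference of 0.61, without overlap, is given as a description. Elovl4 and Elovl7 differed by 0.18 and -0.35, also without overlap, at levels where most of the signal can be background.

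Desaturases put double bonds into the chain, and none of 7 tested passed. Scd1, which turns stearate into oleate, was 11.92, 12.03 and 11.94 in jsd against 11.71, 11.72 and 11.68 in SCARKO-jsd testes. All SCARKO-jsd arrays were lower and lay close together (-0.26 ± 0.08 SE; limma adjusted p = 0.143), as on the other probe set (-0.27). Scd2, a paralogue of Scd1, differed by -0.12 ± 0.12 (adjusted p = 0.666), by -0.57 and -1.67 on its other bright probe sets and by -0.79 with the probe sets averaged, all with SCARKO-jsd 2 included. Without that array the 3 probe sets gave -0.20, -0.40 and -0.48. Scd3, another paralogue, differed by 0.14 ± 0.12 (adjusted p = 0.579). Fads1 and Fads2, the delta-5 and delta-6 desaturases of polyunsaturated synthesis, differed by 0.005 and -0.06, with 95% intervals from -0.28 to 0.29 and from -0.26 to 0.14. Fads3 differed by 0.31 ± 0.15 (adjusted p = 0.352) and by 0.15 without SCARKO-jsd 2. Fads2b was dim, with a difference of 0.10.

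Several desaturase probe sets were low in SCARKO-jsd 2, the array with the large actin gap. The dimmest of the bright Scd2 probe sets was 10.10, 11.06 and 9.84 in jsd, 10.10 and 9.60 in SCARKO-jsd 1 and 3, and 6.28 in SCARKO-jsd 2. The other bright Fads1 probe set was 8.63 to 9.42 in the other arrays and 6.62 in SCARKO-jsd 2. Fads6, a family member of unknown activity, was 9.14 in SCARKO-jsd 2 and 10.21 to 10.57 in the other arrays. Of the 55 bright probe sets of the 51 genes, these 3 were the ones that lay over 1 log2 unit below every other array in SCARKO-jsd 2. The Fads6 difference of -0.20 (adjusted p = 0.806) became 0.27 without that array, and the part of RNA quality in these values was not tested.

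**Figure D3:**
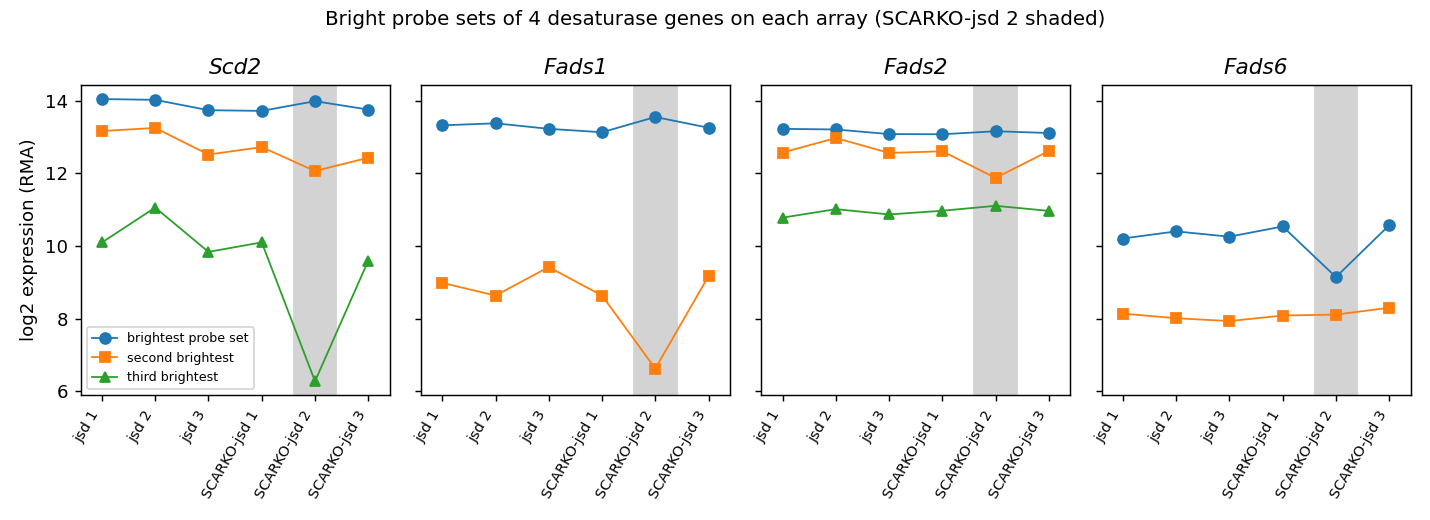
Log2 expression of the bright probe sets of Scd2, Fads1, Fads2 and Fads6 on each array; a line joins the values of 1 probe set. In SCARKO-jsd 2 (shaded) a Scd2 probe set is at 6.28 and a Fads1 probe set at 6.62, while the brightest Scd2 probe set lies within the range of the other arrays there and the brightest Fads1 probe set above it.

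Among fatty acid binding proteins, 1 of 3 tested fell. Fabp5 was 12.69, 12.69 and 12.62 in jsd against 12.23, 12.21 and 12.28 in SCARKO-jsd testes. The values of each group lay within 0.08 of each other and the groups were apart by over 0.3. The difference was -0.43 ± 0.08 (SE, n = 3 per group; limma adjusted p = 0.0327), and the other bright probe set gave -0.59, also without overlap. This call did not hold with median centring (-0.39, adjusted p = 0.149), nor with every probe set tested by itself (0.0691), where 1.17% of all probe sets and 1 of 60 from these genes, that of Acsl6, passed. It also ended when an array other than SCARKO-jsd 2 was left out, at differences between -0.45 and -0.42. The adjusted p was then 0.163, 0.161 and 0.0783 without jsd 1, 2 and 3 (limma). Without SCARKO-jsd 1 and 3 it was 0.0648 and 0.112. The part of the marker lists given above in the Fabp5 difference was not tested.

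Fabp3, the heart-type protein, did not move detectably, with 14.26 to 14.35 in jsd and 14.28 to 14.36 in SCARKO-jsd testes. Its difference was 0.03, with a 95% interval from -0.16 to 0.22. Fabp4, the binding protein of fat cells, endothelium and macrophages, was 8.12, 7.37 and 6.76 in jsd against 7.19, 6.68 and 7.25 in SCARKO-jsd testes, a wide spread in which the groups overlapped (-0.37 ± 0.32, adjusted p = 0.592). Of 8 fat cell markers measured, 4 were dim (Adipoq, Lep, Cidec and Pparg) and 4 were tested (Retn, Lipe, Aoc3 and Fabp4 itself), of which none passed, at an adjusted or an unadjusted p under 0.05 (limma). The summed linear level of all 8 was 1130 to 1374 in jsd and 1134 to 1227 in SCARKO-jsd testes, and their part in the Fabp4 values was not tested. Fabp9, known from sperm, and its neighbour Fabp12 were dim and differed by 0.10 and -0.01. Fabp1, Fabp2, Fabp6 and Fabp7, known from liver, gut and brain, were dim too, with differences between -0.07 and 0.07.

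Perilipins coat lipid droplets. None of 4 passed, while all 4 differences were above 0 and the groups did not overlap for 3 of them. For all tested genes these shares were 59.8% and 24.6%. Plin2, the perilipin found on droplets of most tissues, was 10.37, 10.24 and 10.21 in jsd against 10.57, 10.71 and 10.86 in SCARKO-jsd testes (0.44 ± 0.10 SE; limma adjusted p = 0.0677). Plin3, which moves from the cytosol to young droplets, was 10.13, 10.09 and 10.15 in jsd against 10.40, 10.43 and 10.68 in SCARKO-jsd testes (0.38 ± 0.10, adjusted p = 0.0949). Every SCARKO-jsd array of Plin2 and Plin3 lay above every jsd array. Plin5, a perilipin of tissues that burn fat, ranged from 8.62 to 9.30 in jsd and from 9.31 to 9.60 in SCARKO-jsd testes, where the closest arrays were under 0.01 apart (0.40 ± 0.18, adjusted p = 0.304). Without jsd 1, its lowest array, the Plin5 difference was 0.20. Its other bright probe set gave 0.27 with overlap. Plin4, neighbour of Plin5 on chromosome 17, differed by 0.09 (95% interval -0.20 to 0.38), and by -0.04 without SCARKO-jsd 3. The part of the marker lists given above, some of which moved between the groups, in the perilipin values was not tested.

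Carnitine palmitoyltransferases, the gate into mitochondria, gave no call among 3 tested. Cpt1a, the liver-type enzyme of the outer membrane, was 11.58, 11.74 and 11.35 in jsd against 11.51, 11.85 and 11.45 in SCARKO-jsd testes, a difference of 0.04 (95% interval -0.29 to 0.38; limma adjusted p = 0.90). The other bright Cpt1a probe sets gave 0.31 and 0.48, both without overlap. Cpt2, of the inner membrane, differed by 0.04 (95% interval -0.19 to 0.26). Cpt1c, known from neurons, differed by 0.22 ± 0.12 (adjusted p = 0.377).

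More than 1 probe set was present for 29 of the 51 genes. Of 20 other probe sets above the dim limit, 13 had the sign of the brightest probe set of their gene and 7 the opposite sign. The opposite signs came from Acsl4, Elovl5, Fabp3, Fads1, Fads2 and Fads6, whose brightest probe sets all differed by at most 0.20 in size.

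Other genes of fatty acid metabolism, in 9 lists, mostly did not pass. Of 126 tested, 1 rose, 1 fell and 124 did not pass, while 3.57% of all tested genes were called. An unadjusted p under 0.05 (limma) was found for 20 of the 126, against 18.0% of all genes. The median difference of the 126 was 0.07, beside 0.04 for all genes. Dgat2, which makes triglyceride from diglyceride, was 8.27, 8.31 and 8.19 in jsd against 8.74, 9.13 and 8.74 in SCARKO-jsd testes, 1.53-fold higher (0.61 ± 0.12 SE; limma adjusted p = 0.0425). Cyb5r1, a cytochrome b5 reductase, was 11.80, 11.75 and 11.59 in jsd against 11.25, 11.15 and 11.19 in SCARKO-jsd testes, 1.43-fold lower (-0.51 ± 0.09, adjusted p = 0.0280). In both genes the groups lay apart by more than their own spread. With 1 array left out, Dgat2 kept its call only where that array was SCARKO-jsd 2, and the adjusted p otherwise reached 0.171. It also lost it under 4 processing alternatives, up to 0.0954. Cyb5r1 lost it without jsd 1, jsd 2 or SCARKO-jsd 3 (up to 0.147), with median centring (0.0916) and with every probe set tested by itself (0.0647).

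In glycerolipid synthesis, 1 of 16 rose and 15 did not pass. Lpin3, a phosphatidate phosphatase that supplies diglyceride, differed by 0.46 ± 0.11 (SE; limma adjusted p = 0.0631). Of 12 genes of lipolysis and other droplet proteins, none passed. There, the monoglyceride lipase gene Mgll differed by 0.51 ± 0.19 and the droplet protein gene Cidea by 0.54 ± 0.29 (adjusted p = 0.224 and 0.382). Mitochondrial oxidation gave no call among 24 genes. Of these, 20 were above 0, against 59.8% of all tested genes, and their median was 0.09, beside 0.04. The carnitine-acylcarnitine carrier gene Slc25a20 differed by 0.34 ± 0.10 (adjusted p = 0.135) and Decr1, which reduces double bonds, by 0.20 ± 0.09 (0.263). In peroxisomal oxidation, none of 14 passed, and Crot, which makes carnitine esters for export to mitochondria, and Nudt19, which hydrolyses coenzyme A, differed by 0.38 and 0.30 (0.107 and 0.144).

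Uptake genes gave no call among 8. Lipa, the lysosomal acid lipase, differed by -0.41 ± 0.09 (SE; limma adjusted p = 0.0623) and Slc27a3, a fatty acid transport protein, by -0.34 ± 0.13 (0.229). Both passed without SCARKO-jsd 2, at -0.46 and -0.49 (adjusted p = 0.0228 and 0.0132). Fatty acid synthesis had no call among 11, its median was 0.02, and Fasn, the synthase itself, differed by 0.11 and Mid1ip1, which activates acetyl-CoA carboxylase, by -0.30 (adjusted p = 0.580 and 0.362). Among 13 partners of elongation and desaturation, Cyb5r1 fell and 12 did not pass. Cers6, a ceramide synthase, differed there by -0.30 ± 0.09 (adjusted p = 0.114). Other acyl-CoA synthetases and binding proteins gave none of 11, with Acbd5 at 0.26 and the acetyl-CoA synthetase gene Acss1 at -0.19. Of 18 regulators, none passed, with Mlxipl, a carbohydrate-sensing factor that switches on lipid synthesis, at -0.51 ± 0.12 (0.0716) and the coactivator gene Ppargc1b at -0.37 ± 0.10 (0.109). In the lists without a call, unadjusted p values under 0.05 numbered 2 for uptake, 0 for synthesis, 1 for lipolysis and 3 for each kind of oxidation. They numbered 1 for other synthetases and 3 for regulators. The share among all tested genes was 18.0%.

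**Figure D4:**
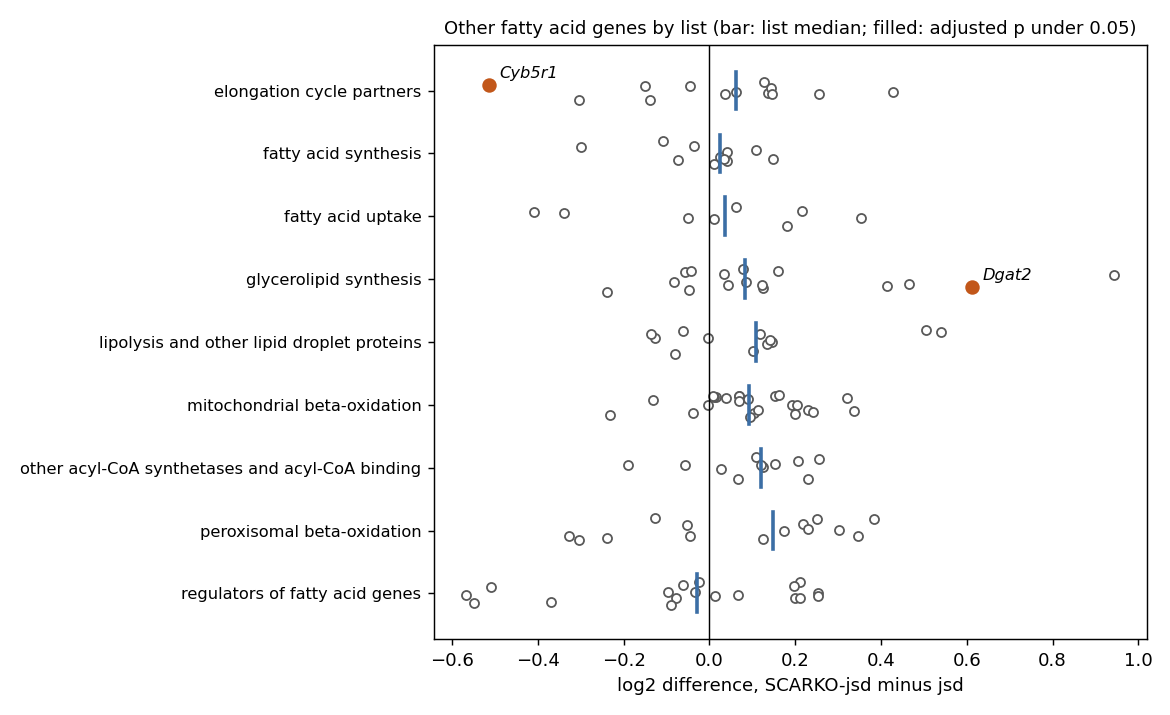
Log2 difference (SCARKO-jsd minus jsd) of each tested gene in 9 lists of other fatty acid genes, jittered vertically, with a bar at each list's median. The list medians lie between -0.03 and 0.15, and the filled points are Dgat2 at 0.61 and Cyb5r1 at -0.51.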

How the data were processed

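Per the submitters' processing notes, the authors made the deposited values with RMA in the affy package, as log2 expression per probe set. RMA corrects background, brings the arrays to a common distribution and summarises probes, so a shift of most transcripts in the same direction would not be seen. No source used here gives the affy version. Of 45101 probe sets, 34958 had 1 symbol in GEO's annotation, 932 several and 9211 none, and the symbols of all 51 genes matched RefSeq by gene ID. Each gene was taken by its brightest probe set with 1 symbol. Genes in the lowest 40% of the mean (up to 6.64) were left out, which left 10916. They were tested across all genes with limma 3.58.1 (lmFit and eBayes) in R 4.3.3, two-sided, with genotype as the only term and Benjamini-Hochberg adjustment. The series' design text gives 3 mice per genotype. The labels number arrays 1 to 3 in each group without saying which mouse each came from. The p-values rest on the spread between these arrays, taken as 1 mouse each. The fit was also run on simulated data without an outlying array. That run does not bear on the calls made here, and its outcome is not given. The number of arrays limits the precision, with a median SE of 0.11.

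Named are genes with an adjusted or unadjusted p under 0.05, Acsl3, the brightest of each family and, of each list, called genes and the 2 with the smallest p, and every other gene is accounted for. The genes and lists were chosen with earlier results of these data known. The targeted gene of the knockout is not reported here. Alternatives were no filter on dim genes, the lowest 60% left out, each probe set tested alone, probe sets averaged per gene, centring on the median, another round of quantile normalization, trend and robust, arrayWeights, a replicate block and each array left out. A direct repeat element and a full steroid receptor element were also searched in the promoter windows, with 0 matches in the 50 windows. Python 3.11.15 with matplotlib 3.10.9 drew the figures.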

Additional observations from a re-analysis of the deposited data

Results flagged for a closer look

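A probe set shared by Acot10 and Acot9, which names no single gene and was used in no comparison, read 9.19, 9.28 and 9.31 on the jsd arrays. On the SCARKO-jsd arrays it read 9.50, 9.72 and 9.76. It stood out because signal outside the main measurement was higher in every SCARKO-jsd array than in every jsd array, by 0.40 log2 units. Its adjusted p was 0.224 (limma over all probe sets, without a filter), and the groups were fully apart for 24.6% of all tested genes. The probe set of Acot9 alone gave 0.40 as well, but both probe sets may read the same transcript.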

How the results depend on the processing

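Over 15 alternative settings, of 505 values for 34 named genes, 462 kept their sign and their side of the threshold, 23 lost a call, 11 gained a call and 9 changed sign. The sign changes were all of values that had not passed: Acsl3 at -0.070 with arrayWeights, Cpt1a at -0.12 with arrayWeights, and, with the mean of probe sets, Acsl4 at -0.10, Fabp3 at -0.015 and Acbd5 at -0.05. With 1 array left out Acsl3 ranged from -0.073 (without jsd 3; -0.069 without SCARKO-jsd 2) to 0.10, and Cpt1a from -0.08 (without SCARKO-jsd 2; -0.06 without jsd 3) to 0.13. Fabp5 was called in 7 of 15 alternatives and Acsl6 in all 14 that tested it, since with the lowest 60% left out it was not tested. Plin2 passed with trend and robust (adjusted p = 0.0437) and with arrayWeights (0.0215), where Plin3 (0.0224) and Acot9 (0.0306) passed too. The arrayWeights fit stopped before it converged.

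Of the 51 genes, 1 was called with the lowest 60% left out, with every probe set by itself, with median centring and with the replicate block, and 5 with arrayWeights. With 1 array left out the count was 1 to 2. All genes called numbered 390, 246 with every probe set by itself, 860 with arrayWeights and 78 to 768 with 1 array left out. Of the other fatty acid genes, 2 were called, 0 with every probe set by itself and with median centring, 1 with the mean of probe sets, 8 with arrayWeights and 0 to 4 with 1 array left out. Of the genes' probe sets, 1 was called, 3 with the lowest 60% left out and with trend and robust, 28 with arrayWeights and 0 to 2 with 1 array left out. For the first of these counts the share of all probe sets called was 1.17%. For the others that share is not given here, so those counts are not read as a result about these genes. The cause of these changes was not tested.

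Deviations of same-numbered arrays from their group means correlated at -0.21, 0.23 and 0.24. Those of arrays with unlike numbers correlated at -0.39 to 0.35, a range that holds these values, so the numbers were not taken as pairs. With the replicate block 397 genes were called in all, Acsl6 kept its call, and Fabp5 (-0.43, adjusted p = 0.0807) and Cyb5r1 (-0.51, 0.0501) lost theirs. Dim genes near background and the small number of arrays limit what could be detected.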
